A study of Mus musculus with 2 samples.

Results

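The nuclear factor I (NFI) genes Nfia, Nfib, Nfic and Nfix were examined for Arid1b signal in primary mouse dental mesenchyme cells. Their peaks were taken as every interval of the deposited Arid1b peak list that touched a gene or the 10 kb to either side, with gene spans from RefSeq on GRCm38.p6 (mm10). This gave 14 of the 8318 peaks in the list (0.168%), at all 4 genes. Arid1b is a large subunit of BAF, a SWI/SNF complex that moves and evicts nucleosomes, and carries an AT-rich interaction domain that binds DNA. Chromatin immunoprecipitation with sequencing (ChIP-seq) was compared between 2 libraries, 1 of chromatin precipitated with an Arid1b antibody from Cell Signaling and 1 of input chromatin with no antibody. Both came from wild-type C57BL/6 mice, as cultures grown in medium with 10% serum from cells of the apical part of the first lower molars at postnatal days 3.5 to 7.5. The series is titled for Arid1a and its design mentions conditional Arid1a knockout mice, but both libraries analysed here are labelled wild type and the antibody is labelled Arid1b. The number of animals pooled is not stated in the labels. With 1 library on each side there was no replicate check and no test between conditions, so all values describe these 2 libraries. In chromatin from many cells, a site bound in few cells and a site bound weakly in many cannot be told apart.

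NFI proteins are transcription factors that bind DNA as dimers through a conserved amino-terminal domain, and their preferred site is a palindrome with TTGGC on either strand around a short spacer. Nfic is needed for tooth roots: mice without it form molars with short or missing roots and abnormal odontoblasts, the cells that lay down dentin. Nfia is known for its part in glial development, Nfib for lung and brain maturation, and Nfix for brain and fetal muscle development.

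Annotated start sites in the RefSeq promoter table (GRCm38.p6) matched 3 of the 4 genes by symbol, with 1 start for Nfia, 1 for Nfic and 4 for Nfix. None of these 3 genes had an Arid1b peak within 1 kb of any of its listed starts, 6 in all. Of the 17491 protein-coding genes in that table, 23.9% had a peak this close to a listed start. With 3 genes a difference was not tested. The listed starts lie inside the annotated spans, 4746 bp from the upstream end at Nfic and 3877 bp at Nfia. At Nfix the most upstream is 21156 bp from that end. A promoter at an annotated upstream end is therefore not covered, and 1 Nfix peak lay 555 bp from such an end. No peak was listed within 1 kb of the Nfic, Nfia and most upstream Nfix starts, and the windows of these starts are shown. Each runs from 250 bases before to 50 bases after the start, 5′ to 3′ on the strand of the gene, and capitals mark matches to the motifs named after the sequences.
Nfic, chr10:81427124-81427423, minus strand: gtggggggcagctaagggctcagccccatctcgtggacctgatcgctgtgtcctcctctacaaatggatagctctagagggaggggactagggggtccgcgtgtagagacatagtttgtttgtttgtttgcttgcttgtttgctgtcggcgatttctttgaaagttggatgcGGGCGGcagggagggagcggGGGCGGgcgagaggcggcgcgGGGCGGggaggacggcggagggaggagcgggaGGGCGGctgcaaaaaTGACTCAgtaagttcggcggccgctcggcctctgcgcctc
Nfia, chr4:97581693-97581992, plus strand: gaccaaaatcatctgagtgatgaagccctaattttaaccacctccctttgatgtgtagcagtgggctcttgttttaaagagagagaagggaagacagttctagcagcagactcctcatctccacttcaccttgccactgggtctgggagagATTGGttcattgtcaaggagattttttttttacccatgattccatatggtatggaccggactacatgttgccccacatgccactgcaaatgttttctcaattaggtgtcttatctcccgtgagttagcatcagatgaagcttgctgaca
Nfix, chr8:84780033-84780332, minus strand: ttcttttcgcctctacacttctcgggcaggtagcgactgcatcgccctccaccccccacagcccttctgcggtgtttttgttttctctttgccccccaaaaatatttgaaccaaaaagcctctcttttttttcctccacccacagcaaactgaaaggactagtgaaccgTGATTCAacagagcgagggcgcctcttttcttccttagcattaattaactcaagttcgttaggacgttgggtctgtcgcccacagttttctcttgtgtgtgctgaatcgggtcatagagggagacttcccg

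The Nfic window was rich in G and C (63.0%, against a median of 52.7% over all 32851 windows of the table), the Nfix window held 49.3% and the Nfia window 44.7%. Of 5 motifs searched on both strands, the GC box GGGCGG matched 4 times in the Nfic window, and 35.7% of all windows held at least 1 match. The AP-1 site TGANTCA matched once in the Nfic window, beginning at position 11 with the start counted as 1, and once in the Nfix window, beginning 81 bases upstream of the start, and 7.81% of all windows held it. The only match in the Nfia window was a CCAAT box (letters CCAAT, held by 37.4% of all windows). The NFI palindrome, searched as TTGGC, then 5 bases of any kind, then GCCAA, was absent from the 6 windows of the family and present in 0.0365% of all windows. A single arm with A after it, TTGGCA, which can overlap the palindrome, was also absent from them and present in 14.1% of all windows. A match of letters is a description of the window and not a binding site.

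The 14 peaks lay unevenly over the family, with 6 at Nfix, 4 at Nfib, 3 at Nfic and 1 at Nfia. Having any peak was common, since 31.7% of 21883 protein-coding genes did by the same rule, and having several was not. Among all protein-coding genes 4.73% had at least the 3 peaks of Nfic, 2.39% at least the 4 of Nfib and 0.708% at least the 6 of Nfix. Some of these peaks are near neighbours: merged within 500 bp, Nfix had 4, Nfib 3 and Nfic 2. The shares of all genes after merging are not given here. Long genes offer more room, so the shares were also taken by gene span. Among genes that span 30 to 100 kb, as Nfic and Nfix do, 40.2% had any peak, 4.67% had 3 or more and 0.355% (18 of 5077) had 6 or more. Among genes of 100 to 300 kb, as Nfib is, 40.3% had any peak and 3.58% had 4 or more. Nfia belongs to the genes of 300 kb or more, of which 29.9% had a peak. Over the windows of the family there were 1.44 peaks per 100 kb, against 0.783 over the windows of all protein-coding genes, and the single genes ranged from 0.178 at Nfia to 5.38 at Nfic. These densities were not matched for gene span.

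**Figure D1:**
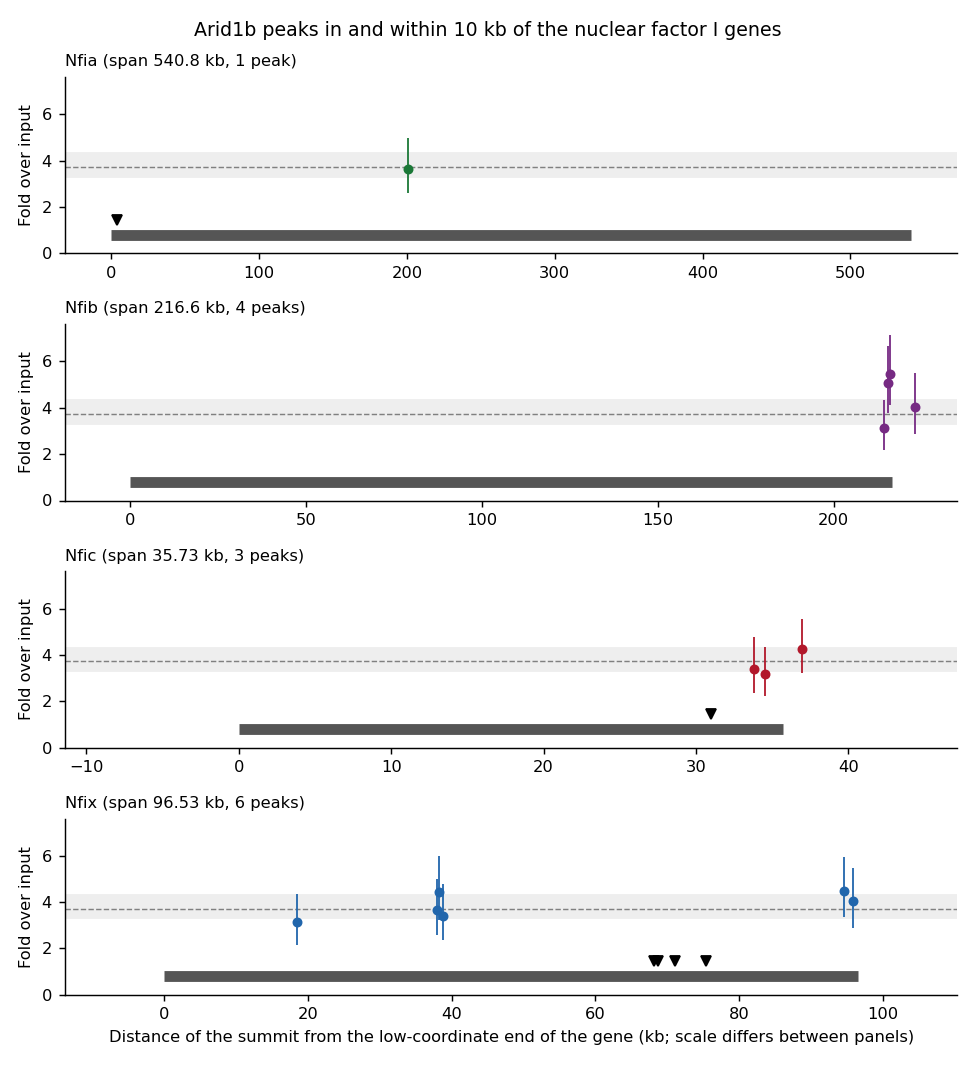
Position (x, kb from the low-coordinate end of each gene, scale differing between panels) and fold over input at the summit (y) of the 14 Arid1b peaks, 1 panel per gene. Bars are exact Poisson 95% intervals, the dark bar is the gene, triangles are listed start sites, and the dashed line and grey band are the median (3.72) and quartiles (3.30 and 4.32) of all 8318 peaks. The peaks of Nfib and Nfic crowd at the right-hand end, Nfix has a further run inside the gene, and the single Nfia peak stands alone.

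**Figure D2:**
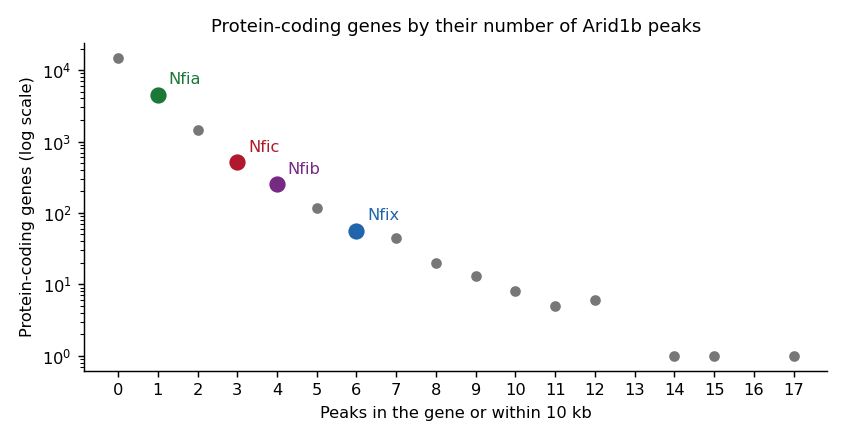
Number of protein-coding genes (y, log scale) by the number of Arid1b peaks that touch the gene or its 10 kb flanks (x). Coloured points mark the classes that hold Nfia with 1 peak, Nfic with 3, Nfib with 4 and Nfix with 6, and 155 genes have 6 or more.

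Nfic (gene ID 18029) spans chr10:81396191-81431919 on the minus strand, so its high-coordinate end is the upstream end. All 3 of its peaks lay around that end. The strongest was outside the gene at chr10:81432965-81433268, 1046 bp from the end, where the Arid1b library had a summit pileup of 52 fragments against 11.4 expected from input, a fold of 4.26 (exact Poisson 95% interval 3.20 to 5.57). All fold values here are those of the authors' peak caller, and pileups and expected levels were worked back from its fold and p-value. Their intervals cover counting error of the pileup only. The pair inside the gene was weaker. At chr10:81430562-81430849 the pileup was 36 against 10.7 expected, a fold of 3.17 (2.25 to 4.36), and at chr10:81429929-81430129 it was 32 against 8.68, a fold of 3.41 (2.36 to 4.77). The 3 intervals overlapped, so the order of these peaks was not resolved at this depth. The nearest edge of the pair lay 2756 bp upstream of the listed Nfic start, which itself lies 4746 bp inside the annotated end. Whether a further Nfic transcript begins between the peaks was not tested. No Nfic peak came within 1 kb of an annotated gene end, by a margin of 46 bp outside the gene and 70 bp inside it.

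Nfib (gene ID 18028), at chr4:82290173-82506751, had the highest fold of the family, again at its high-coordinate end. The peak at chr4:82506186-82506491, 260 bp inside that end, had a pileup of 52 fragments against 8.68 expected, a fold of 5.47 (4.11 to 7.15). Its neighbour at chr4:82505399-82505692 had 48 against 8.68, a fold of 5.06 (3.76 to 6.68). These were the only 2 of the 14 peaks whose interval lay wholly above 3.72, the median fold of the list, and 93.6% and 90.1% of all listed peaks had a lower fold. A weaker peak of the same run, at chr4:82504258-82504591, had 33 against 9.91, a fold of 3.12 (2.17 to 4.34). The last Nfib peak stood apart, 6459 bp beyond the end at chr4:82513210-82513576, inside the neighbouring long noncoding RNA gene Gm11266, with a pileup of 38 against 8.68 and a fold of 4.03 (2.88 to 5.49). The strongest Nfib and the strongest Nfic peak had the same pileup of 52, and differed in the expected level. At Nfib this was 8.68, the most frequent level in the list, so the local input there is not known. The interval of the strongest Nfib peak overlapped that of the strongest peak of each other member, so their order was not resolved.

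**Figure D3:**
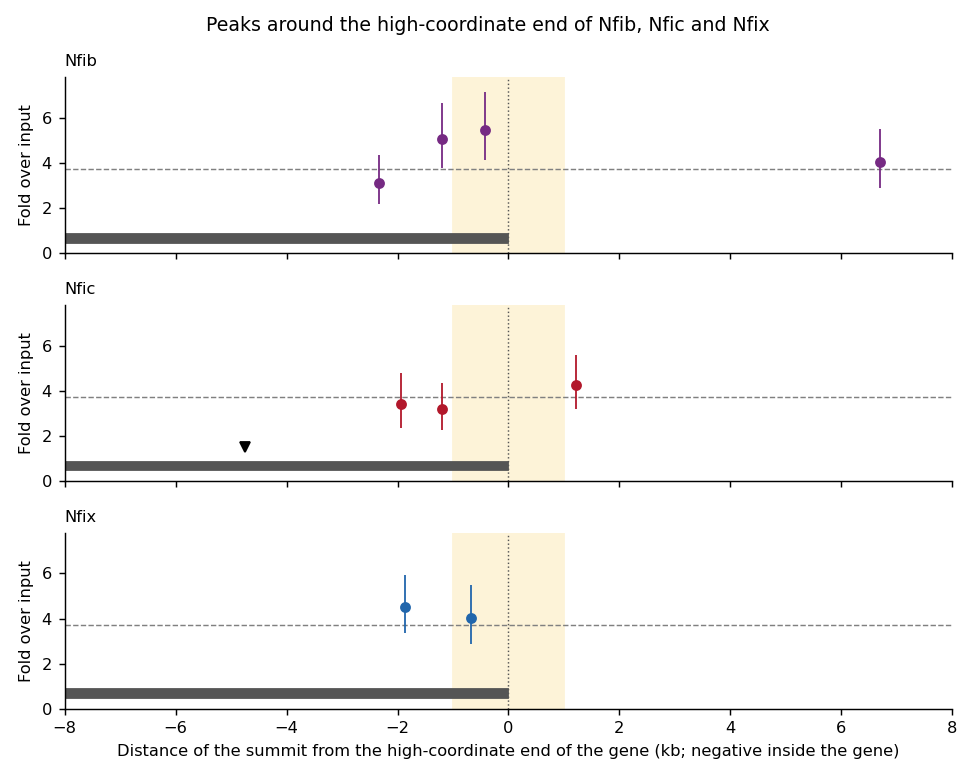
Fold over input (y) of the peaks around the high-coordinate end of Nfib, Nfic and Nfix, by distance of the summit from that end (x, kb, negative inside the gene). Bars are exact Poisson 95% intervals, the shaded strip is 1 kb to either side, the dark bar is the gene, the triangle is the listed Nfic start and the dashed line is the list median of 3.72. In each gene at least 2 summits lie within 3 kb of the end, and only Nfib and Nfix have a summit in the strip.

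Nfix (gene ID 18032), at chr8:84704712-84801238 on the minus strand, carried its 6 peaks in 3 places, all inside the gene. The first place was the upstream end. There the peak at chr8:84798952-84799547, at 596 bp the widest of the 14, had a pileup of 48 fragments against 9.91 expected, a fold of 4.49 (3.34 to 5.93), and the peak at chr8:84800444-84800683, 555 bp from the end, had 38 against 8.68, a fold of 4.03 (2.88 to 5.49). The second place was a run of 3 peaks 58.3 kb into the gene, the strongest at chr8:84742861-84743104 with 42 against 8.68, a fold of 4.44 (3.23 to 5.97). Its flanking peaks, at chr8:84742346-84742727 and chr8:84743451-84743664, had 36 against 9.15 and 32 against 8.68, with folds of 3.65 (2.58 to 5.01) and 3.41 (2.36 to 4.77). The gaps within this run were 133 and 346 bp, and a gap of 55.3 kb separated it from the upstream pair. The last place was a single peak at chr8:84723103-84723314, 46 bp inside the long noncoding RNA gene G430095P16Rik, with 32 against 9.57 and a fold of 3.12 (2.16 to 4.37). The intervals of all 6 folds overlapped, so their order was not resolved. The 4 listed Nfix starts lie between these places, and the most upstream is 18870 bp from the nearest peak and 21156 bp inside the annotated end.

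Nfia (gene ID 18027), the longest of the family at chr4:97578066-98118876 on the plus strand, had a single peak. It lay at chr4:97778328-97778893, 200262 bp from the upstream end and 196385 bp from the listed start, with a pileup of 37 fragments against 9.45 expected and a fold of 3.64 (2.59 to 4.98). The peak sat 905 bp beyond the end of Gm38709, a long noncoding RNA gene inside Nfia. The interval of this fold held the list median, and 45.3% of all listed peaks were weaker. No peak was listed at the upstream end or the listed start of Nfia.

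**Figure D4:**
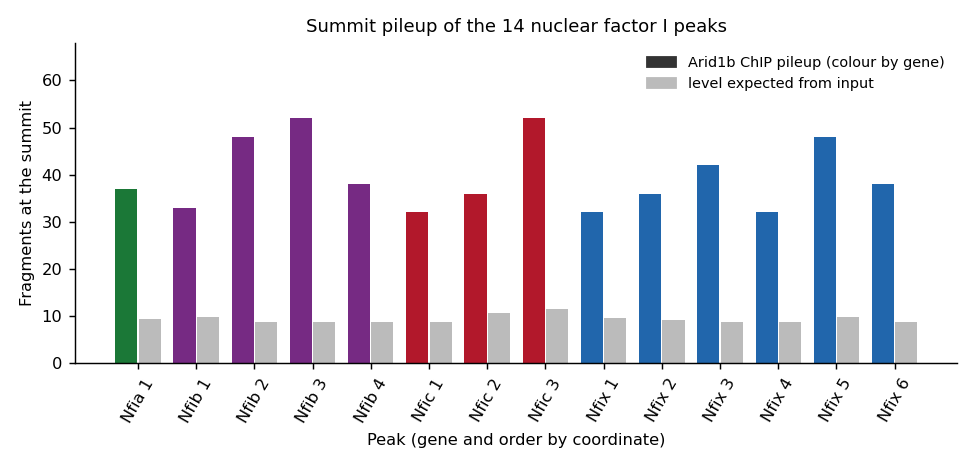
Fragments at the summit (y) for each of the 14 peaks (x, by gene and order of coordinate), with the Arid1b ChIP pileup in colour and the level expected from input in grey beside it. Pileups run from 32 to 52 and expected levels from 8.68 to 11.4. The level of 8.68 was taken as genome background and is not a local input count.

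As a family, the NFI peaks were ordinary in strength and width and stood close together. Their fold had a median of 3.84 and ranged from 3.12 to 5.47, against a median of 3.72 and a range of 1.37 to 17.1 in the whole list. Of the 14, 7 exceeded the list median and 12 had an interval that held it, beside 85.5% of all peaks. The median width was 299 bp, against 307 bp in the list. Another peak lay within 1 kb of 10 of the 14 peaks (3 at Nfib, 2 at Nfic and 5 at Nfix), against 41.5% of all peaks. When intervals closer than 500 bp were merged, 10 regions were left. The authors' -log10 q ran from 5.36 to 19.1 over the 14 peaks, with a median of 8.47 in the list. The most frequent expected level in the list, 8.68, was taken as genome background. The expected level was at this value in 7 of the 14 and above it in 7, against 47.2% at background in the whole list. The list gives no local input counts, so the input at those 7 peaks is not known.

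Few of the NFI peaks lay right at an annotated gene end. Summits within 5 kb of a protein-coding gene end made up 8 of the 14, all at the high-coordinate ends of Nfib, Nfic and Nfix, against 80.3% of all listed peaks. Only 2 of the 14 peaks came within 1 kb of a protein-coding gene end, against 63.4% of all listed peaks, and these made Nfib and Nfix the 2 genes of 4 with a peak at an end. Among all protein-coding genes 22.2% had such a peak, and among those with any peak by the 10 kb rule it was 70.0%. Of the 5625 protein-coding genes with a listed start and a peak, 74.2% had a peak that came within 1 kb of a listed start. None of Nfia, Nfic and Nfix did. Their listed starts all lie inside the genes, so a peak at an annotated upstream end, as at Nfix, was not counted. An end of a long noncoding RNA gene lay within 1 kb of 2 of the 14 peaks, at Nfia and Nfix, against 14.6% of all peaks. The only other gene ends within 10 kb of an NFI peak were those of Gm11266, 1498 bp from the strongest Nfib peak, of 2310067E19Rik inside Nfib, 6026 bp from the nearest peak, and of Gm51811 inside Nfic, 5751 bp away. With 4 genes these counts are a description, and a difference from other genes was not tested.

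The farthest peak inside the 10 kb window was that 6459 bp beyond Nfib. The nearest outside it lay 11454 bp from Nfic, with a fold of 3.49 (2.56 to 4.64). It was in or within 1 kb of Gm48551 and of Dohh, which encodes an enzyme of hypusine formation. At Nfix the nearest lay 15226 bp away (4.03, 2.88 to 5.49), at Nfib 30352 bp away (2.89, 1.94 to 4.16), and at Nfia 804813 bp away (3.15, 2.30 to 4.22).

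Genes most like each member were found by the same number of peaks and the closest highest fold, over the single ChIP library. Among 55 other protein-coding genes with 6 peaks, Nfix was closest to Prrx1 (highest fold 4.52), a homeobox gene of cranial and limb mesenchyme, then to Six2 (4.46), a homeobox gene, and Dusp6 (4.54), a phosphatase gene that restrains ERK. Among 510 genes with 3 peaks, Nfic was closest to Sez6 (4.24), Ahdc1 (4.23) and Cnnm2 (4.23). For Nfib and Nfia 6 genes each had the same highest fold, and the first 3 by symbol were 4931414P19Rik, Cops6 and Ctbp2 for Nfib and Ankrd52, Atp8b1 and Bnip3l for Nfia. The 3 genes closest to Nfix differed from it by 0.0285 to 0.0513 in highest fold. The intervals of Nfix (3.34 to 5.93) and Prrx1 (3.37 to 5.95) were far wider, so the order of likeness was not resolved.

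Genes that background knowledge ties to Nfic in odontoblasts and root formation were mostly but not all near Arid1b signal. Of 16 such genes, 10 had a peak by the 10 kb rule, beside the 31.7% of all protein-coding genes. The median was 1 peak a gene against 0 over all. These shares were not matched for span, and the list genes run from 5.34 kb (Klf4) to 111.2 kb (Smad3). Among all protein-coding genes of 30 to 100 kb 40.2% had a peak, and among those of 100 to 300 kb 40.3%. Strongest was Cdkn1a, a cyclin-dependent kinase inhibitor, with a pileup of 53 against 8.98 expected and a fold of 5.41 (4.08 to 7.05). Next came Ptch1, the Hedgehog receptor, with 56 against 9.91 and 5.23 (3.97 to 6.76). Sp7 encodes osterix, a factor of odontoblast and osteoblast differentiation, and had 49 against 8.99 and 5.0 (3.73 to 6.58). That peak, at chr15:102377006-102377293, lay outside Sp7, whose span ends at 102367035. It was close to the limit of the 10 kb window and may belong to a neighbour. Sp7 had 2 peaks, and part of the other lay within 1 kb of an annotated end of Sp7. Over all protein-coding genes with a peak, the median of the highest fold was 4.03. The interval of Cdkn1a lay above it, that of Klf4 below it, and those of the other 8 genes held it.

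TGF-beta signalling restrains Nfic in odontoblasts, and the list was chosen to hold its genes Tgfb1, Tgfbr1, Tgfbr2, Smad2, Smad3, Smurf1 and Smurf2. Their presence among the remaining genes with a peak therefore reflects that choice and is not a result about the pathway. The remaining genes with a peak were the receptor genes Tgfbr1 (4.13, 2.97 to 5.61) and Tgfbr2 (4.13, 3.02 to 5.51), the signal transducer genes Smad3 (4.95, 3.67 to 6.55) and Smad2 (4.03, 2.88 to 5.49), the ligand gene Tgfb1 (3.41, 2.36 to 4.77), the ubiquitin ligase gene Smurf2 (3.12, 2.17 to 4.34) and the zinc-finger gene Klf4 (2.89, 2.02 to 4.0). No peak was listed at Hhip, which encodes a Hedgehog-binding inhibitor, at the dentin matrix genes Dspp and Dmp1, or at Shh, Gli1 and Smurf1. Klf4, Dmp1 and Dspp are known as a chain of genes downstream of Nfic, and of these only Klf4 had a peak.

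**Figure D5:**
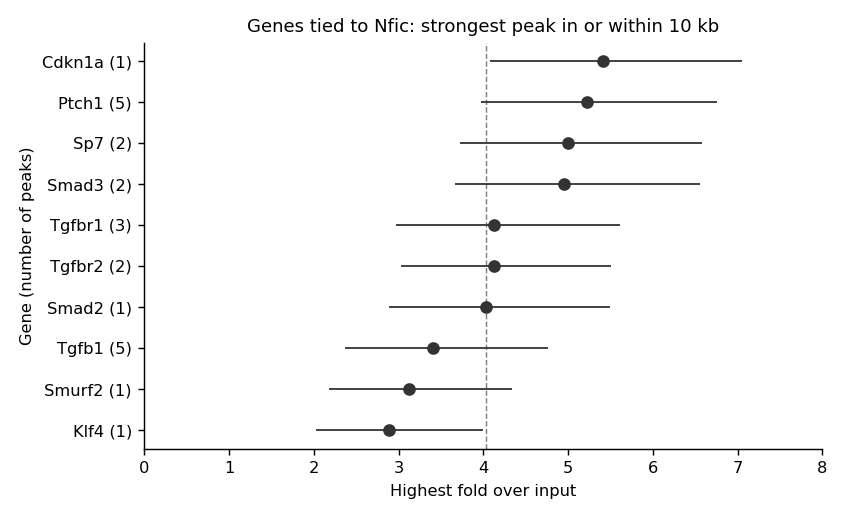
Highest fold over input (x) with its exact Poisson 95% interval for the 10 of 16 genes tied to Nfic that had an Arid1b peak (y, number of peaks in brackets). The dashed line is the median highest fold of all protein-coding genes with a peak (4.03), and 8 of the 10 intervals hold it.

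The peak list holds no RNA values, so the labelled cell type could be viewed only through peaks at marker genes. Of 12 dental mesenchyme markers, 11 had a peak by the 10 kb rule (all but Lhx6, with Dlx1 and Dlx2 sharing their strongest peak), against 1 of 16 markers of endothelium (0 of 5), blood and immune cells (1 of 6, Cd68) and neurons and glia (0 of 5), beside the 31.7% of all protein-coding genes. The marker lists were not matched for span or for gene class, such as transcription factor genes. Cell type and gene class therefore cannot be told apart in this contrast. A peak of Arid1b near a gene does not measure its expression, and peaks within 10 kb may belong to a neighbour.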

How the data were processed

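Arid1b ChIP-seq was set against input, 1 library each. FastQC 0.11.8, Bowtie2 2.2.5, Picard, MACS2 2.1.1 and mm10 are named without roles in the submitters' processing notes, and no label states filters or read numbers. The deposited narrow peak list gives each peak's position, summit offset, fold ratio over input, -log10 p-value and -log10 q-value by the authors' peak caller. The authors' score column repeats the -log10 p-value times 10, cut to whole numbers, in 100% of peaks and was not used. Replicates were not pooled.

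Pileup and expected level were recovered by assuming that fold is pileup plus 1 over expected plus 1 and that p is the Poisson probability of more than the pileup. Whole pileups met both within 0.001 in -log10 p in 100% of peaks, and the method was tested on simulated data. Depth was modest, with a median pileup of 38. Poisson 95% intervals cover counting error only, since fragments may share a source molecule.

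Gene spans came from RefSeq (GRCm38.p6, 21883 protein-coding genes on the assembled nuclear chromosomes) and start sites from its promoter table. Protein comparisons and sequences under peaks were not analysed here. Coordinates are 1-based. The members, gene lists, motifs and settings were chosen with earlier results of these data known. Named were all 4 genes and their peaks, other genes with an end within 10 kb of such a peak, list genes with a peak, and for each member the 3 genes with as many peaks and the closest highest fold. List genes without a peak and markers by name were chosen after their values were seen. Alternatives covered flanks, thresholds, summits, merging and expected level. The planned dental epithelium markers are not reported here. Python 3.11.15, pandas 2.3.3 and scipy 1.17.1 were used.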

Additional observations from a re-analysis of the deposited data

How the results depend on the processing

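No paired analysis was possible because there was 1 ChIP and 1 input library, and for the same reason no replicate could be left out. The 14 NFI peaks became 31 with a flank of 50 kb and 5 with a -log10 q of at least 10. They became 2 with a fold of at least 5 and 7 where the expected level was at background. Under the same 4 settings the 6941 protein-coding genes with a peak became 10608, 3491, 1140 and 3807. The 10 genes tied to Nfic became 6 with the stricter q, 3 with the fold and 5 with the expected level at background. The 11 dental mesenchyme markers became 5 with the fold. The 2 NFI genes with a peak at an end became 1 within 500 bp, 1 with a -log10 q of at least 10, 1 with a fold of at least 5 and 0 at listed start sites, where Nfib could not be evaluated. For the 500 bp, q and fold settings, the share of all protein-coding genes with a peak at an end is not given here. The stricter settings keep fewer peaks by construction. The other 28 counts of these results stayed within 1.5 times. Of the values for single genes, 13 moved further and 26 did not. The Nfia peak dropped out with the stricter q, with the fold and with the expected level at background. No genome was used, so sequence, GC content and repeats under the peaks are not described, and most folds could not be told apart at this depth.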

Other observations

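Beyond the windows of 10 kb, 17 further peaks lay within 50 kb of the family, 11 around Nfix, 4 around Nfic, 2 around Nfib and 0 around Nfia. Around Nfix, 4 of them lay at Ier2, an immediate early gene, the strongest at chr8:84661841-84662392 with a pileup of 49 fragments against 8.84 expected and a fold of 5.08 (exact Poisson 95% interval 3.79 to 6.68). Around Nfic the peaks lay at Mfsd12, Fzr1 and Dohh, with folds of 2.79 to 3.49, each with an interval that held the list median of 3.72. Inside Gm11266, 30750 bp beyond Nfib, a peak 1066 bp wide at chr4:82537501-82538566 was wider than any of the 14 NFI peaks, with 51 against 9.91 and a fold of 4.77 (3.57 to 6.24). These genes were named after their values were seen.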
